A study of Mus musculus with 7 samples.

Results

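A set of 10 cartilage genes differed widely from library to library in RNA from fetal mouse muscle fibers. They are Col2a1, Acan, Col9a1, Col9a2, Col9a3, Col11a1, Col11a2, Matn1, Sox9 and Ucma, out of 31531 genes measured. They were chosen by their levels in these same libraries, because these varied between libraries of one genotype. Their levels, spread and fold changes are thus given below as a description, and nothing is concluded from a test of them. RNAseq was performed on fibers from the epaxial (back) muscles of E17.5 C57BL/6 fetuses, with 4 WT and 3 dyW/dyW libraries, each from a different fetus. The dyW allele disrupts Lama2, the gene of the laminin α2 chain, in the whole animal and in homozygous form, and the fetuses came from crosses of heterozygous mice with no treatment described for either group. Fibers were freed with dispase and collagenase and kept as what a cell strainer retained. All 10 genes passed the filter on low values, which asked for a mean of 5 or more normalized counts and left 25791 genes for testing.

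Hyaline cartilage is built on fibrils of collagen II, with collagen XI in the core of the fibril and collagen IX on its surface, and on aggrecan, the large proteoglycan that holds water. Chondrocytes make these proteins under the transcription factor SOX9, and both matrilin 1 and UCMA are secreted into the matrix by chondrocytes. In the fetal trunk, the vertebrae and ribs are cartilage models that lie next to the epaxial muscles and are replaced by bone, and the muscle fiber is not known as a source of collagen II.

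The genes lie on 8 chromosomes, with Ucma and Col9a3 both on chromosome 2 and Col9a2 and Matn1 both on chromosome 4, neither pair as neighbors. For 3 of them the upstream windows of 250 bases are shown, because these genes marked the range of behavior: Col9a1 followed the mean pattern of the 10 genes most closely, Col11a1 departed from it in dyW, and Ucma had the fewest reads in dyW. The windows end at the base before the transcript start in GENCODE release M39 on GRCm39, are read on the gene's strand, which is the plus strand for all 3, and overlap no annotated exon. They are Col9a1 at chr1:24216441-24216690, Col11a1 at chr3:113823884-113824133 and Ucma at chr2:4980675-4980924, and capitals mark matches to the motifs described after them.
Col9a1: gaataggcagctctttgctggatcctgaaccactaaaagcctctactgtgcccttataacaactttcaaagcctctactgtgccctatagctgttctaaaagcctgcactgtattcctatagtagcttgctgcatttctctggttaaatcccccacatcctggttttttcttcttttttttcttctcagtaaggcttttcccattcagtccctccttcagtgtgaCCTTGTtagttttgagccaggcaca
Col11a1: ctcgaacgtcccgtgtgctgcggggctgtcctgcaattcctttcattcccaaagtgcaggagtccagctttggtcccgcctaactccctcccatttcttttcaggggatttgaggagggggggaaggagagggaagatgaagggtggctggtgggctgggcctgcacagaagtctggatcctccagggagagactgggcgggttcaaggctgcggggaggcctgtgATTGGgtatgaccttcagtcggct
Ucma: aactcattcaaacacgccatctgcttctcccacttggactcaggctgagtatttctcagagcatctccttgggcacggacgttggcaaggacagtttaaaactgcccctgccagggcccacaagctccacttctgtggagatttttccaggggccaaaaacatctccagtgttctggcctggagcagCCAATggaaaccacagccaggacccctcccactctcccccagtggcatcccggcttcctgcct

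Motifs were searched on both strands. ACAANG, with any base at N, is a loose form of the core that SOX proteins bind. It was matched in the windows of 2 of the 10 genes, Col9a1 with its first base 25 bases before the start and Matn1 130 bases before it. Both matches were ACAAGG on the other strand, with G at N, and thus match the loose form only. This form stood in 34.9% of the 21770 windows of protein-coding genes. CCAAT was matched for 6 of the 10 genes, with Ucma 63 and Col11a1 24 bases before the start, and stood in 36.5% of all windows. TATAAA was matched only for Col11a2 among the 10 and stood in 11.9% of all windows. A match is a run of letters and not a shown binding site.

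The libraries differed in depth and content in ways that touch every value below. Reads on genes ranged from 470804 to 2220813 in WT and from 3663905 to 18297106 in dyW, and 25530 to 29594 genes had a read in WT against 14209 to 19360 in dyW. Lama2, the targeted gene, stood at normalized counts of 90.6 to 111 in WT, 4.29 in dyW1, 6.07 in dyW2 and 140 in dyW3. Its level in dyW3 was thus above the WT range, unlike in dyW1 and dyW2, and the reason was not tested. A count summed over a whole gene cannot by itself show the genotype, and the paper typed fetuses by PCR on their tails. Libraries are named below by their labels. WT1 and dyW1 stood apart in muscle content. The 12 muscle fiber genes took 0.120% of the reads in WT1 and 0.00496% in dyW1, where 6 of the 12, Ckm and Des among them, had no read, against 0.323% to 2.08% in the other 5 libraries. In bulk RNA, more cells of a type and more RNA per cell cannot be told apart.

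Col2a1 encodes the chain of which collagen II is a homotrimer (GRCm39, chromosome 15, 97873483 to 97902689, minus strand). Its normalized counts, the reads on the gene divided by 1 size factor per library, were 415687, 40.5, 6462 and 2328 in WT1 to WT4, and 195, 0.126 and 9.77 in dyW1 to dyW3. WT1 was the highest library by far, and dyW1 was above WT2, so the groups overlapped. The value of WT2 rested on 15 reads (95% Poisson interval 22.6 to 66.7 normalized counts) and that of dyW2 on 1 read, and these intervals cover counting error only. The WT mean of 106129 ± 206389 (SD, n = 4) fell to 2944 when WT1 was left out. In WT1 Col2a1 was the most abundant of all genes and took 16.6% of the reads, whereas it ranked 33 in WT4, 43 in WT3, 8363 in WT2, 1437 in dyW1, 12981 in dyW2 and 13063 in dyW3.

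**Figure D1:**
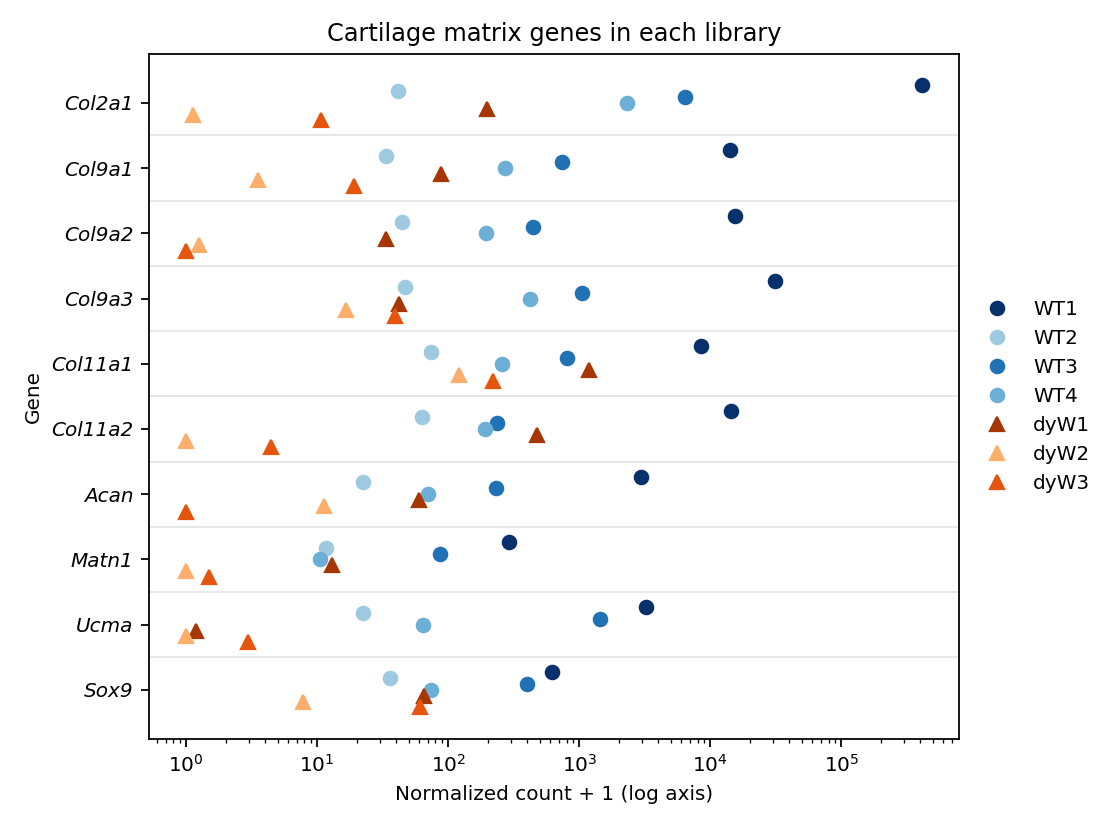
Normalized count plus 1 on a log axis for the 10 genes in the 4 WT libraries (circles) and the 3 dyW libraries (triangles), 1 point per library. WT1 is the rightmost point for all 10 genes, and the WT points of Col2a1 run from 40.5 to 415687.

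Collagen IX is a heterotrimer of the chains of Col9a1 (chromosome 1, 24216691 to 24291765), Col9a2 (chromosome 4, 120896582 to 120912523) and Col9a3 (chromosome 2, 180239583 to 180264063), all on the plus strand. Col9a1 stood at 14058, 32.4, 734 and 271 normalized counts in WT1 to WT4 and at 87.9, 2.53 and 18.1 in dyW1 to dyW3. Col9a2 stood at 15466, 43.1, 441 and 192 in WT1 to WT4 and at 32.8, 0.253 and 0 in dyW1 to dyW3, where no read in dyW3 allows up to 3 reads. Col9a3 stood at 31326, 45.8, 1054 and 418 in WT1 to WT4 and at 41.3, 15.7 and 38.1 in dyW1 to dyW3. All 3 genes had the order WT1, WT3, WT4, WT2 within WT, and for Col9a2 and Col9a3 every WT library was above every dyW library, although WT2 rested on 16 and 17 reads and its intervals reached down to 24.7 and 26.7, inside the dyW range. Per kb of exon, Col9a2 ran at 98.2% to 218% of Col9a1 in the 4 WT libraries and at 61.1% in dyW1, and Col9a3 at 159% to 250% of Col9a1 in WT and 52.6% in dyW1. These ratios between chains thus varied far less over the WT libraries than the levels themselves. The WT2 ratios rested on 12 to 17 reads per gene and say little. Without WT2 the ratios ran from 98.2% to 180% for Col9a2 and from 161% to 250% for Col9a3. In dyW2 and dyW3 Col9a2 was left with 2 and 0 reads while Col9a3 had 124 and 78.

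Collagen XI chains behaved differently in dyW. Col11a1 (chromosome 3, 113824134 to 114014367, plus strand), whose product also occurs in fibrils with collagen V outside cartilage, stood at 8471, 72.8, 812 and 255 normalized counts in WT1 to WT4. In dyW1 to dyW3 it stood at 1178, 120 and 217, so that all 3 dyW libraries were above WT2 and dyW1 was above WT3. Col11a2 (chromosome 17, 34258108 to 34285664, plus strand) stood at 14469, 62.0, 234 and 189 in WT1 to WT4 and at 475, 0 and 3.42 in dyW1 to dyW3. Both chains were higher in dyW1 than in every WT library but WT1. Per kb of exon, Col11a2 ran at 294% of Col11a1 in WT1, 147% in WT2, 49.6% in WT3, 128% in WT4 and 69.4% in dyW1, but at 2.71% in dyW3 with 7 reads and at 0 reads in dyW2, where Col11a1 had 951 reads. In dyW2 Col11a1 thus came with no read of Col11a2 and 1 read of Col2a1.

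Of the matrix genes that are not collagens, Acan, the gene of aggrecan (chromosome 7, 78702964 to 78764847, plus strand), stood at 2969, 21.6, 230 and 69.2 normalized counts in WT1 to WT4 and at 59.1, 10.2 and 0 in dyW1 to dyW3. Its span is overlapped on the other strand by that of Gm26633, and reads on bases in exons of both could not be told apart without strand. The spans of antisense genes likewise overlap those of Col2a1, Col9a3, Col11a1 and Sox9. Whether exons overlap was not examined for any of these genes. Matn1, the gene of matrilin 1 (chromosome 4, 130670216 to 130682787, plus strand), stood at 288, 10.8, 86.2 and 9.44 in WT1 to WT4 and at 12.1, 0 and 0.488 in dyW1 to dyW3. Matn1 had only 3 reads in WT4 and 4 in WT2, and those libraries could not be ordered at this depth.

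Ucma, the gene of a secreted protein of the upper growth plate (chromosome 2, 4980925 to 4990559, plus strand), stood at 3236, 21.6, 1438 and 62.9 normalized counts in WT1 to WT4. It stood at 0.195, 0 and 1.95 in dyW1 to dyW3, which is 6 reads in all over libraries with 36324799 reads on genes. Every WT library was above every dyW library, and WT2 rested on 8 reads. Ucma was the 1 gene of the 10 for which dyW1 was not the highest dyW library, and its level in WT1 was 2.25 times that in WT3, against 64.3 times for Col2a1.

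Sox9, the transcription factor of chondrocytes, which other embryonic tissues also express (chromosome 11, 112673009 to 112678586, plus strand), had the smallest fold range within WT with all 4 libraries. It stood at 618, 35.1, 396 and 72.4 normalized counts in WT1 to WT4 and at 64.2, 6.83 and 60.1 in dyW1 to dyW3. WT1 was 1.56 times WT3, and dyW1 and dyW3 lay between WT2 and WT4. Its fold range within WT was 17.6, against 30.5 for Matn1, 116 for Col11a1, 138 for Acan, 150.0 for Ucma, 233 for Col11a2, 358 for Col9a2, 434 for Col9a1, 683 for Col9a3 and 10277 for Col2a1. This order rested on WT1: without it the range was 11.3 for Sox9, against 3.77 for Col11a2, 9.13 for Matn1, 10.2 for Col9a2, 10.6 for Acan, 11.2 for Col11a1, 22.7 for Col9a1, 23.0 for Col9a3, 66.7 for Ucma and 160 for Col2a1. The lowest WT value, in WT2 or for Matn1 in WT4, rested on 3 to 27 reads.

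The order of the libraries was nearly the same for every gene. WT1 was highest of the 7 libraries for 10 of 10 genes, WT3 was above WT4 for 10, and WT4 was above WT2 for 9, the exception being Matn1. Within dyW, dyW1 was highest for 9 of 10 genes, and dyW2 was the lowest of all 7 libraries for 7. dyW1 was above WT2 for 7 genes and above WT4 for 3, Col11a1, Col11a2 and Matn1. Every WT library was above every dyW library for 3 of the 10 genes, Col9a2, Col9a3 and Ucma, where 31.5% of all tested genes showed this.

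The SD of log2(normalized count + 1) over the 4 WT libraries was 1.95 to 5.46 for the 10 genes, with a median of 3.45, against a median of 0.84 for all 25791 tested genes and 0.66 for the 6111 whose mean was 50 or more normalized counts. Only 0.112% of tested genes had an SD above the median of the 10. Col2a1 ranked 5 among all tested genes by this SD, Col9a3 13, Col9a1 21, Col9a2 23, Ucma 29, Col11a2 31, Acan 75, Col11a1 104, Matn1 688 and Sox9 2400. Within dyW the spread of the 10 was less unusual, with a median SD of 2.16 against 1.40 for all tested genes, and 31.6% of tested genes exceeded that median. The genes were chosen for this spread, so these ranks describe them and test nothing.

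**Figure D2:**
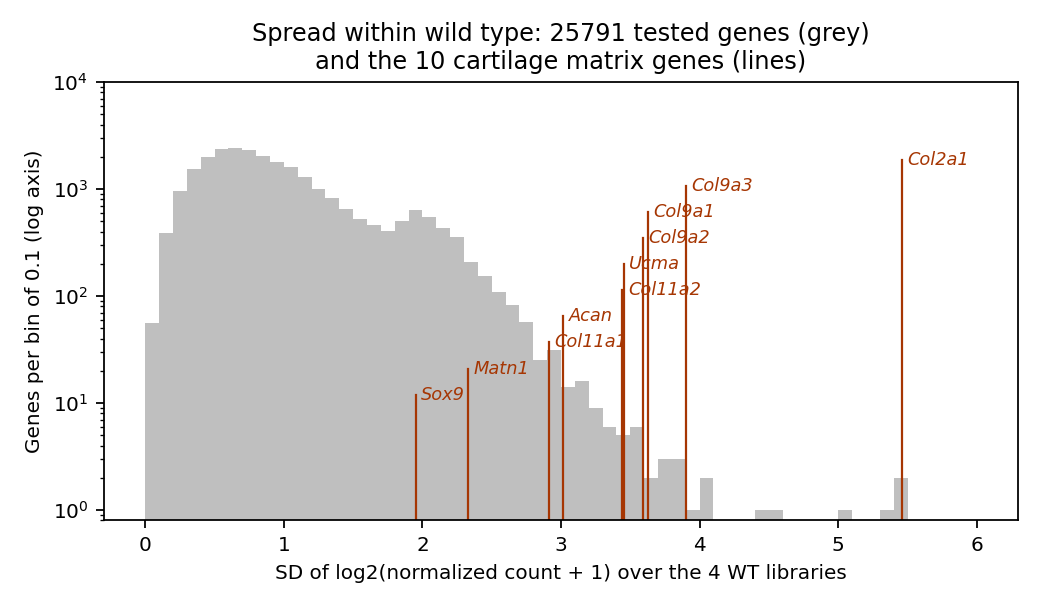
Number of tested genes per bin of the SD of log2(normalized count + 1) over the 4 WT libraries (grey, log axis), with a line for each of the 10 genes, whose heights carry no value. The lines run from Sox9 at 1.95 to Col2a1 at 5.46, to the right of the median of 0.84 of all tested genes.

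The 10 genes together took 20.2% of the reads on genes in WT1 (95% Wilson interval 20.1% to 20.3%), and 0.00969%, 0.261% and 0.0698% in WT2 to WT4. In dyW they took 0.153% in dyW1, 0.00674% in dyW2 and 0.0195% in dyW3. The highest WT library thus had 2084 times the share of the lowest, and dyW1 lay between WT3 and WT4. As summed normalized counts the values were 506589, 386, 11887 and 3867 in WT1 to WT4 and 2146, 156 and 349 in dyW1 to dyW3.

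The makeup of these reads also differed. Col2a1 made up 82.1% of the reads on the 10 genes in WT1, 54.4% in WT3 and 60.2% in WT4, but 10.5% of 143 reads in WT2 (95% Wilson interval 6.46% to 16.6%). It made up 9.10% in dyW1, 2.80% in dyW3 and 0.0811% in dyW2, where Col11a1 made up most of the reads. In reads per kb of exon and per 1000000 reads on genes, the order in WT1 began with Col2a1 at 17702, Col9a3 at 2758 and Col9a2 at 1988, whereas in WT3 Ucma at 354 stood above Col2a1 at 152. In dyW1 the order began with Col11a1 at 65.7, Col11a2 at 45.7 and Col2a1 at 14.9. Per kb of exon WT1, WT3 and dyW1 thus each had another leading gene of the 10, whereas by reads Col2a1 led in both WT1 and WT3.

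**Figure D3:**
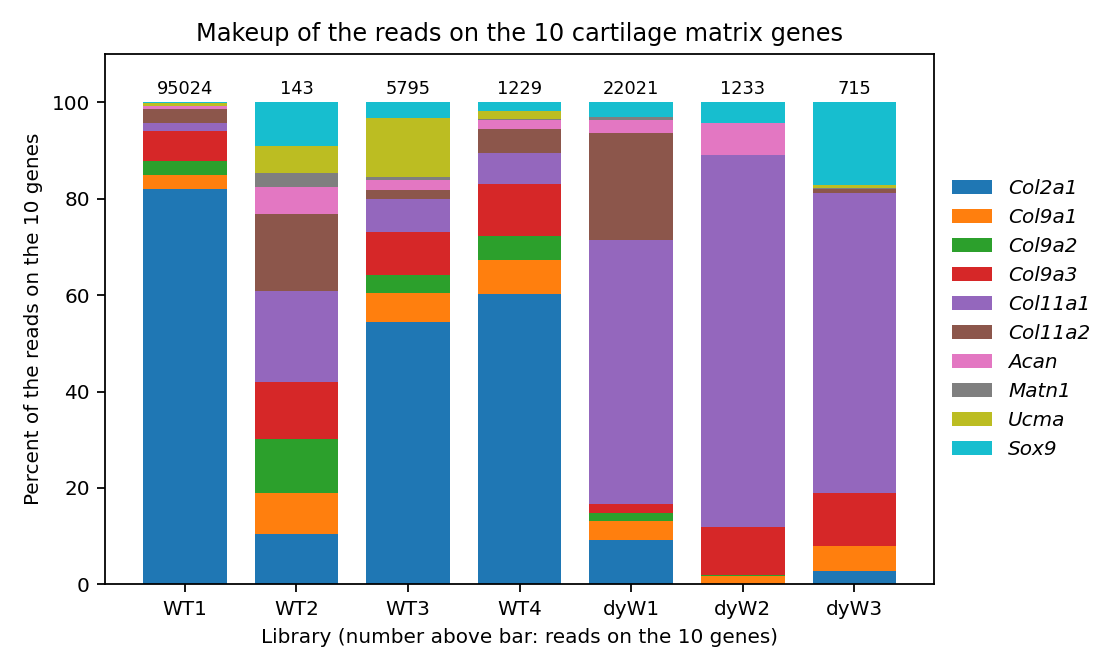
Stacked bars of the percent of reads that each of the 10 genes took of all reads on the 10, from 0 to 100, with the number of those reads above each bar. Col2a1 is the tallest block in WT1, WT3 and WT4 (82.1%, 54.4% and 60.2%), and Col11a1 in the 3 dyW libraries.

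How far the low values stood above reads that follow no tissue was read from 1208 odorant and vomeronasal receptor genes, which neither muscle nor cartilage is known to use. Their median was 0.632, 2.48, 1.76 and 1.85 reads per kb of exon in WT1 to WT4, 0 in dyW1 and dyW2 and 1.07 in dyW3. Over 2 times that level stood 10 of the 10 cartilage genes in WT1, 2 in WT2 (Ucma at 3.61 times and Col9a2 at 2.08 times), 10 in WT3, 8 in WT4 and 5 in dyW3. Against the 75th percentile of the receptor genes in place of their median, the number in dyW3 was 0, since that percentile was 18.0 reads per kb there. The median of the 10 genes was 701 times the receptor level in WT1, 32.7 times in WT3, 6.77 times in WT4 and 1.10 times in WT2. In WT2 the 10 genes were thus near the level of genes with no known role there, and no ratio could be formed in dyW1 and dyW2.

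For the comparison of dyW with WT, limma was fitted to log2(normalized count + 1) of all tested genes, and a gene was called when its Benjamini-Hochberg adjusted P-value was under 0.01 and its absolute log2 fold change over 1.5, the thresholds of the study. Of the 10 genes 1, Ucma, was called lower, where 18.7% of all tested genes were called lower, and 0 were called higher, where 0.0659% of all tested genes were. The genes were chosen on these values, so nothing is read from the count. On this scale, which understates the change of low genes, the log2 fold changes of dyW over WT were -8.23 ± 2.81 (SE, 4 against 3 libraries) for Col2a1, -7.56 ± 1.67 for Ucma, -7.14 ± 1.98 for Col9a2 and -5.13 ± 2.33 for Col11a2. They were -4.93 ± 1.88 for Col9a1, -4.89 ± 1.81 for Col9a3, -4.37 ± 1.81 for Acan, -3.96 ± 1.41 for Matn1, -2.34 ± 1.19 for Sox9 and -0.93 ± 1.49 for Col11a1. The median of the 10 was -4.91 against -1.99 for all tested genes, and values are to be read against that shift. When 1 library was left out, the median of the 10 ran from -6.18 without WT2 to -3.28 without WT1, and was -5.92 without dyW1 and -4.66 without dyW3. Over these fits Col2a1 ran from -10.4 to -6.00, Col9a1 from -6.28 to -3.37, Col9a2 from -8.78 to -5.48 and Col9a3 from -6.31 to -3.18. Likewise Col11a2 ran from -7.74 to -3.29, Acan from -5.76 to -2.80, Matn1 from -5.10 to -3.04 and Sox9 from -3.06 to -1.34. Ucma was no longer called when any 1 of the 7 libraries was left out, with a log2 fold change of -8.78 to -6.39 in those fits, and the value of Col11a1 changed sign to 0.34 without WT1 and to 0.21 when every library was scaled to 1 common total. With both WT1 and dyW1 left out, 0 of the 26210 genes tested were called, whereas 10924 had an unadjusted P-value under 0.05 in limma.

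The wider cartilage program was read from 4 lists of other genes. Of 17 other cartilage matrix genes, 16 were tested and 1, Matn4, was called lower, with a median log2 fold change of -4.43. Matn4, the gene of matrilin 4, stood at 203, 45.8, 65.6 and 25.2 normalized counts in WT1 to WT4 and at 7.89, 0.253 and 0 in dyW1 to dyW3 (log2 fold change -4.84 ± 1.04, limma adjusted P = 0.00764). Per kb of exon its WT reads were 0.612 to 8.51 times the receptor level, and it was no longer called in 12 of the 15 alternatives in which it was tested, including the fits without WT1, WT2, WT3, WT4, dyW2 and dyW3 in turn, where its log2 fold change was -5.27 to -4.26. Of 13 chondrocyte regulators 10 were tested and 1, Pax9, a transcription factor of the vertebral column, was called lower. Pax9 had 4, 9, 4 and 4 reads in WT1 to WT4 and none in dyW, at least 23.3-fold lower against a floor of 3 reads per library (limma adjusted P = 0.00379), and its WT reads were 0.428 to 1.25 times the receptor level. It was no longer called in 9 of 15 alternatives, among them the fits without WT2, WT4, dyW1 or dyW2 in turn, where its log2 fold change was -4.11 to -3.82 against -4.03 in all libraries, and the fit with quantile normalization, where it was -0.65. Receptor genes themselves were called lower for 37.0% of the 1084 that were tested.

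None of the 8 growth plate hypertrophy genes and none of the 8 proteoglycan sulfation genes was called by limma; at an unadjusted P-value under 0.05 the numbers were 0 lower and 0 higher, and 2 lower and 1 higher, where 41.5% of all tested genes were lower and 2.81% higher at that threshold. The same numbers were 9 lower and 0 higher of the 16 other cartilage matrix genes and 4 lower and 0 higher of the 10 regulators. Over the 42 genes of the 4 lists that were tested, 2 were called lower and 0 higher, where 18.7% and 0.0659% of all tested genes were, and their median log2 fold change was -2.44. The highest members of these lists by mean level were Cnmd, Epyc and Cytl1 of the matrix genes, Fgfr3, Wwp2 and Trps1 of the regulators, Mmp13, Col10a1 and Mef2c of the hypertrophy genes, and Slc26a2, Papss2 and Chsy1 of the sulfation genes.

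Among WT1, WT3 and dyW1 alone, Comp, Hapln1, Chad, Susd5 and Snorc were highest in WT1 and lowest in dyW1, as were all of the 10 but Col11a1 and Col11a2, whereas Cytl1, Col10a1 and Mmp13 had other orders. Cnmd, the gene of chondromodulin, stood at 16447 normalized counts in WT1, 15442 in WT3 and 9.55 in dyW1, and Epyc, the gene of the proteoglycan epiphycan, at 9708, 2876 and 0. Cytl1, a secreted protein of chondrocytes, stood at 213 in WT1 and 8252 in WT3, the reverse order of the 10 genes, and at 0.974 in dyW1. Col10a1, the collagen of hypertrophic chondrocytes, had no read in WT1, 4363 normalized counts in WT3 and 319 in dyW1. Mmp13, a collagenase of the ossification front and of bone, had no read in WT1 and stood at 170 in WT3 and 17612 in dyW1. WT1 thus had the highest levels of the 10 genes with no read of Col10a1 or Mmp13, and WT3 had both with Ucma, Cnmd and Cytl1.

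**Figure D4:**
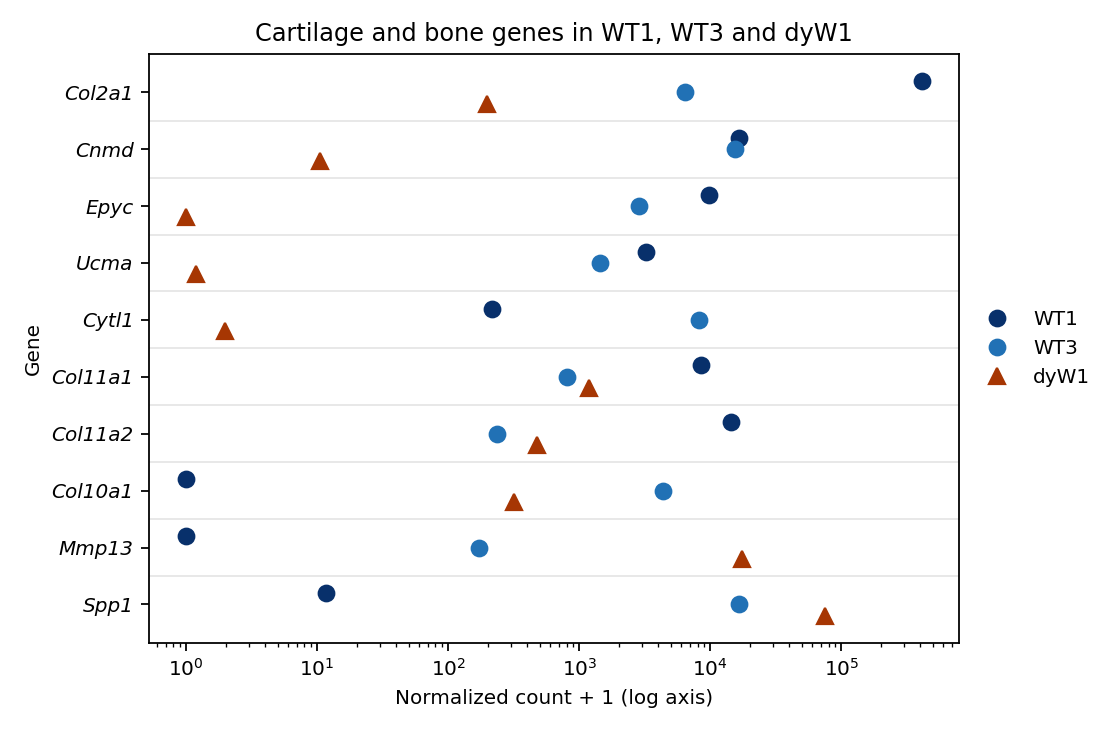
Normalized count plus 1 on a log axis for 10 cartilage and bone genes in WT1, WT3 and dyW1, 1 point per library. Cnmd is nearly level in WT1 and WT3 (16447 and 15442), whereas Col10a1 has no read in WT1 and stands at 4363 in WT3, and Spp1 is highest in dyW1.

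The named regulators and sulfation genes differed in which library was highest. Fgfr3, a receptor of growth plate chondrocytes, stood at 1434, 59.3, 291 and 81.8 in WT1 to WT4 and at 285, 0 and 0.488 in dyW1 to dyW3. Wwp2, a ubiquitin ligase and host gene of miR-140, stood at 1034, 94.4, 556 and 179 in WT1 to WT4 and at 172, 69.1 and 15.6 in dyW1 to dyW3. Trps1, a transcription factor, was above the WT range of 51.3 to 117 in dyW1 and dyW3, at 520 and 473, and below it in dyW2. Papss2, which makes the sulfate donor, and Slc26a2, a sulfate transporter, were highest in WT1, at 560 and 522, against 53.9 to 94.4 and 48.5 to 113 in the other WT libraries. Chsy1, a chondroitin synthase, was higher in every dyW library, at 82.0 to 252 against 18.5 to 42.6 in WT (log2 fold change 2.16 ± 0.66, limma adjusted P = 0.0348), which missed the threshold. Mef2c, which muscle also expresses, stood at 69.3 in WT1 and at 126 to 926 in the other 6 libraries.

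Bone genes were high in dyW1, and Spp1 also in WT3, and their part in the cartilage levels was not tested. The 10 bone genes took 6.28% of the reads in dyW1, 0.367% in WT3 and 0.0000219% to 0.00483% in the other 5 libraries. Spp1, Ibsp and Dmp1, matrix proteins of bone, stood at 74905, 8191 and 2504 normalized counts in dyW1, and Spp1 and Ibsp at 16501 and 113 in WT3. Of the 8146 reads on the bone list in WT3, 8044 were on Spp1, and Sp7 and Alpl were lower there than in the other WT libraries. In dyW1 there was a read of all 10 bone genes, and in dyW2 and dyW3 of 3 each. WT1 and WT4 had 16 and 37 reads on the bone list.

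Of muscle genes, Acta1, Actc1 and Mylpf had the highest means, and Acta1, the actin of the muscle fiber, stood at 1973 to 52989 in WT, lowest in WT1, at 4.09 in dyW1 and at 1807 and 3667 in dyW3 and dyW2. The 12 muscle genes took 2.08% of the reads in WT3, the highest of the 7 libraries, beside its cartilage genes and Spp1. The 13 tendon and fibroblast genes, led by Col3a1, Col1a2 and Col1a1, took 0.146% to 0.342% in WT and 1.47% to 1.58% in dyW. In dyW1 93.0% of these reads were on Col1a1 and Col1a2, which bone also makes, against 15.7% to 43.3% in the other 6 libraries. Col3a1 stood at 232 normalized counts in dyW1, below every WT library, while Tnmd, Thbs4 and Kera had no read there. Mkx, at 56.6, was highest of the 7 libraries in dyW1, and Pdgfra, at 280, was above every WT library there. Scx, Fmod, Dcn, Lum and Postn lay inside the WT range in dyW1. Fmod, on the same list, was highest in WT1 and then WT3, at 2607, 16.2, 295 and 59.8 in WT1 to WT4 and at 35.4, 18.2 and 0.488 in dyW1 to dyW3. None of the bone, tendon and fibroblast or muscle genes was called by limma, where 18.7% of all tested genes were called lower and 0.0659% higher. At an unadjusted limma P-value under 0.05 the numbers were 0 lower and 0 higher, 2 lower and 2 higher, and 2 lower and 0 higher. Of all tested genes 41.5% were lower and 2.81% higher at that threshold.

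**Figure D5:**
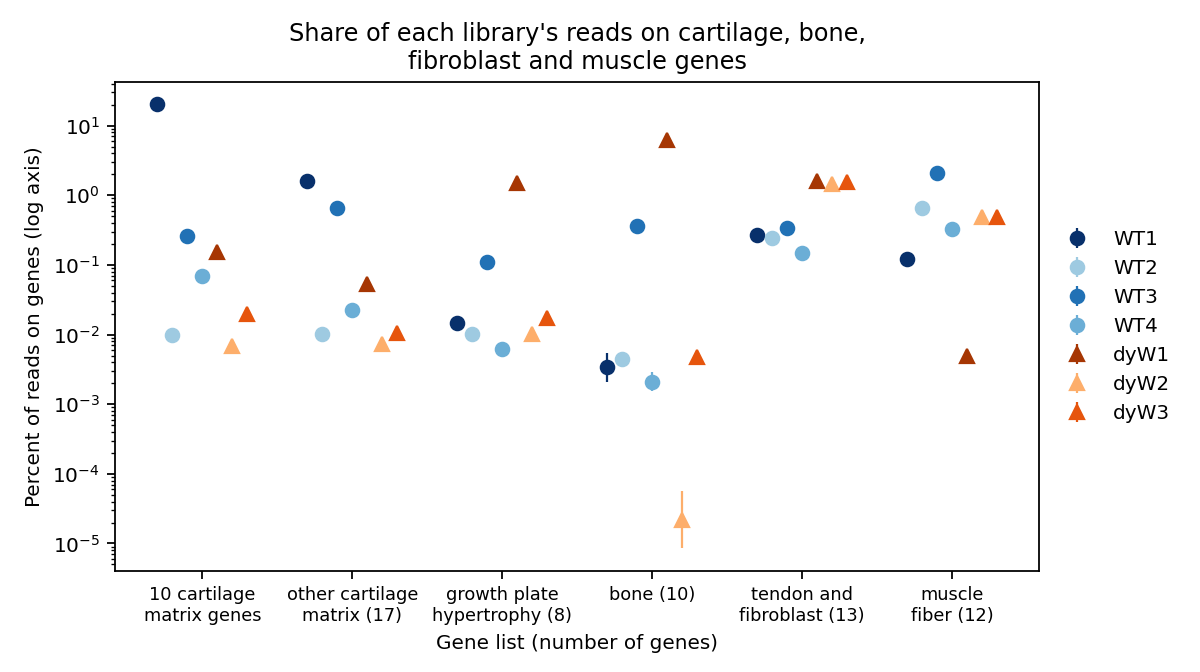
Percent of each library's reads on genes, on a log axis, that fell on the 10 cartilage matrix genes and on 5 other lists, 1 point per library with its 95% Wilson interval. The 10 genes run from 0.00674% in dyW2 to 20.2% in WT1, and bone genes are highest in dyW1 at 6.28%.

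The genes most like the 10 were found by the root mean square difference, over the 7 libraries, between a gene's log2(normalized count + 1) centered on its mean and the mean centered pattern of the 10. Among the 25781 other tested genes the median difference was 3.22. The closest was Meltf, the gene of melanotransferrin, at 0.84, followed by the cartilage genes Snorc at 1.15, Comp at 1.17, Hapln1 at 1.25, Clec3a at 1.26 and Chad at 1.29. Next came Gm26633 at 1.29, which overlaps Acan, then Fmod, the gene of fibromodulin and on the tendon and fibroblast list, at 1.38 and Susd5 at 1.41, and last ENSMUSG00000111740 at 1.42. Meltf stood at 363, 10.8, 63.6 and 28.3 normalized counts in WT1 to WT4 and at 7.70, 0 and 0.488 in dyW1 to dyW3. Comp, the cartilage oligomeric matrix protein, stood at 3321, 27.0, 462 and 107 in WT1 to WT4, at 103 in dyW1 and at 0 in dyW2 and dyW3. Of the 10 closest genes 5 were on the lists of cartilage matrix genes. Among the 10 genes themselves, Col9a1 at 0.46 was closest to the mean pattern, and Col11a1 at 2.01 and Col2a1 at 2.41 were the farthest.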

How the data were processed

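RNA from the fibers of 4 WT and 3 dyW fetuses was turned into full-length cDNA (SMART-seq2), tagmented (Nextera XT) and sequenced on an Illumina NextSeq instrument. The authors trimmed the reads with cutadapt, mapped them to GRCm39 with STAR and deposited normalized counts, that is, unique reads per gene divided by a DESeq2 size factor for each library. Strand use, versions and annotation release are not given in the sources used here. A second deposited table holds the authors' own fold changes, adjusted P-values and related columns and was not used. Groups follow the genotype labels.

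The value of 1 read was found in each library from the spacing of its low values, and 100% of values were whole multiples of it within 0.01. Of 31531 genes, 99.2% matched GENCODE release M39, whose exon lengths were used. Genes with a mean of at least 5 were tested in R 4.3.3 by limma 3.58.1, with an intensity trend in eBayes, on log2(normalized count + 1), and the code was tested on simulated data. P-values measure the spread between libraries, each from a different fetus, which also holds differences in tissue content. Depth did not overlap between the groups, so a P-value cannot tell it apart from genotype. The 10 genes, the lists and the tests were chosen with earlier results of these data known. The 10 genes were described in every library. Of other lists, called genes and the 3 with the highest means were named, and the 10 genes closest in pattern. Genes outside this rule, such as Sp7, Alpl, Ckm, Des, Tnmd, Thbs4 and Kera, were also named to describe single libraries. Alternatives were other pseudocounts, filters, scalings and thresholds, a replicate block and each library left out, and, chosen after seeing the data, voom and leaving out WT1 with dyW1. The Nkx3-2 entry of the regulator list was not matched.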

Additional observations from a re-analysis of the deposited data

Results flagged for a closer look

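Within the 4 WT libraries, WT1 lay apart from the other 3 on the scale of normalized counts. The gap from WT1 to the next library, as a share of the whole WT range, was 0.985 for Col2a1, 0.929 for Acan, 0.95 for Col9a1, 0.974 for Col9a2, 0.968 for Col9a3, 0.912 for Col11a1 and 0.988 for Col11a2, and 0.977 for the sum of the 10 genes. All 8 exceeded Dixon's 95% critical value for 4 samples, which chance passes in about 1 of 20 groups of samples; the genes were chosen for their spread between these libraries, so that rate does not apply to them and the ratios are a description. Sox9, Matn1 and Ucma stayed under it. On the log2(normalized count + 1) scale none of the 10 genes passed it, with ratios of 0.157 to 0.758. The 7 genes share 1 library, so these are not 7 separate observations.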

How the results depend on the processing

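Counts of called genes moved with most settings. Of all genes, 4830 were called lower and 17 higher; the numbers were 0 and 0 with a pseudocount of 10, with a mean of at least 50, with equal library totals and without WT1 and dyW1, 2 and 0 with quantile normalization, 7625 and 259 at an adjusted P-value under 0.05, 0 to 6698 and 0 to 25 when 1 library was left out, with 0 lower without WT2, WT4 or dyW2 and 2090 without dyW1. Equal totals and quantile normalization moved the median log2 fold change of all genes from -1.99 to -0.98 and 0.06. With a pseudocount of 0.1, 41 were called higher, with no filter 10 and with voom 5. Of the 10 cartilage genes 1 was called lower; 0 were with a pseudocount of 10, a mean of at least 50, equal totals, quantile normalization, without WT1 and dyW1, and in all 7 fits that left out a library (0 to 0), and 2 at an adjusted P-value under 0.05. Of the other cartilage genes 2 were called lower; 0 were with a pseudocount of 10, a mean of at least 50, equal totals, quantile normalization and without WT1 and dyW1, 0 to 5 when 1 library was left out, 3 with voom and with no filter, and 7 lower and 1 higher at an adjusted P-value under 0.05. With a replicate block 1 gene was called lower and 0 higher, and 0 of the 10 cartilage genes and 0 of the others. The correlations of same-numbered libraries were 0.147, -0.049 and -0.088. These few values cannot decide whether the numbers pair the fetuses, and the labels give no litter. The cause of these shifts was not tested. The 9 cartilage genes other than Col11a1 kept a negative log2 fold change in all 16 alternatives; Col11a1 was 0.21 with equal totals and ran from -1.94 to 0.34 when 1 library was left out. The summed level of the 10 genes was 1314 times higher in WT1 than in WT2, 263 times without Col2a1 and 2084 times as a share of reads. The median fold range within WT was 192 and ran from 11.2 to 192 when 1 WT library was left out, lowest without WT1. Over 2 times the receptor level stood 30 of the gene and library pairs in WT, and 29 with the 75th percentile, but in dyW3 5 and 0 of the 10 genes. The edgeR and DESeq2 fits were not run; voom on the recovered reads took their place. WT libraries had 470804 to 2220813 reads, which limits values under about 10 reads.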
